A study of Mus musculus with 18 samples.

Results

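The genes described here are 36 mouse genes known for their part in the response to low oxygen or in glycolysis, taken by name. The level of each was read from transcript clusters, the array's unit for 1 gene or part of it. Every cluster that the platform annotation gives to the symbol of the gene alone was used. Hk1 also shares 16 clusters with other symbols, and these were not used. Of the 36 genes, 34 were measured, among 21559 rows in the whole table. Gpi1, which interconverts glucose 6-phosphate and fructose 6-phosphate, and Eno1, the widespread enolase, had no transcript cluster under their own symbol in the annotation used here and are only named. Bnip3, Bnip3l, Hk1, Pgk1, Pgam1 and Pkm had several clusters, which were averaged, and the other 28 had 1.

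All samples were mIMCD-3 cells, a line from the inner medullary collecting duct of the mouse kidney, treated for 24 h. In the AGN193109 experiment, the groups were 1 µM AGN193109 with 0.2 µM all-trans retinoic acid (tRA), 1 µM AGN193109 alone, and vehicle, which was 0.1% ethanol with 0.1% DMSO. In the DEAB experiment, the groups were 25 µM DEAB with 0.01 µM tRA, 25 µM DEAB alone, and the same vehicle. Each group had 3 arrays from 3 independent biological experiments, 18 arrays in all. AGN193109 blocks the retinoic acid receptors and DEAB inhibits the enzymes that make tRA, so each inhibitor against vehicle asks which genes depend on tRA signalling in these cells, and each inhibitor with tRA against the inhibitor alone asks what added tRA does. The doses of tRA differed between the experiments, no group received tRA alone, and all groups come from 1 cell line. Oxygen was not a variable of the design.

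When oxygen is short, the prolyl hydroxylases of the Egln family stop marking hypoxia-inducible factors for destruction, and these factors bind a short DNA element and raise the transcription of many genes. Among those genes are nearly all enzymes of glycolysis, the glucose transporter Slc2a1, the lactate exporter Slc16a3, and Bnip3 and Bnip3l, which direct mitochondria to breakdown. The inner medulla is among the tissues of the body with the least oxygen, and its cells are known for making much of their ATP by glycolysis.

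Values are log2 intensities, so a difference of 1 is a doubling. A gene was called changed where its p from limma's moderated test, adjusted by Benjamini-Hochberg over all 21559 rows, was under 0.05. The test was run without a block and, because arrays of 1 replicate number deviated together, also with replicate number as a block, and both adjusted p-values are given where they differ in the call. The arrays of each experiment correlated at 0.985 or more with each other. Cdh1, Krt8, Krt18 and Epcam, which mark epithelium, lay between percentiles 88.8 and 99.4 of all rows in both experiments. Aqp2, the water channel that defines principal cells of the collecting duct, lay at percentiles 50.9 and 49.8. That position alone does not separate expression from background. The other principal cell markers read lay between percentiles 30.99 (Avpr2) and 72.15 (Hoxb7). Cd68 and Col1a1, markers of leukocytes and fibroblasts, lay above Aqp2, at percentiles 52.6 to 63.6. Of 16 markers of other kidney cells, endothelium, fibroblasts and leukocytes, 0 were called in any comparison in either fit, where 0 to 3 had an unadjusted p under 0.05.

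Where tRA was added to DEAB, Ndrg1 fell to 0.608 of its level in DEAB-treated cells. This was the only one of the 34 members called without the block, against 0.139% of all rows called lower in that comparison. With the replicate block, 4 members fell, namely Ndrg1, Bnip3, Aldoc and Eno2, against 0.793% of all rows, and Bhlhe40 rose, against 0.844% of all rows. In each of the other 5 comparisons no member was called with or without the block. Ndrg1 was the member with the highest fold change in each inhibitor comparison, but its adjusted p was above 0.05 in both fits. The inhibitor and tRA comparisons of an experiment share the arrays with inhibitor alone, so opposite signs are partly built in.

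The calls made with the block rest on all 3 replicate numbers. When the blocked fit was repeated with the arrays of replicate number 1, 2 or 3 left out, which leaves 6 arrays and 2 residual degrees of freedom, 0 members were called in each case, while 31, 17 and 27 rows of the whole table were. The adjusted p of Ndrg1 was then 0.084, 0.063 and 0.0501. This repeat was chosen after seeing the data. When single arrays were left out of the fit without the block, Ndrg1 remained called in all 9 cases. Values given below without a named array also come from that fit. The same-numbered arrays of the other groups stay in it, so the offset between replicate numbers enters those values.

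**Figure D1:**
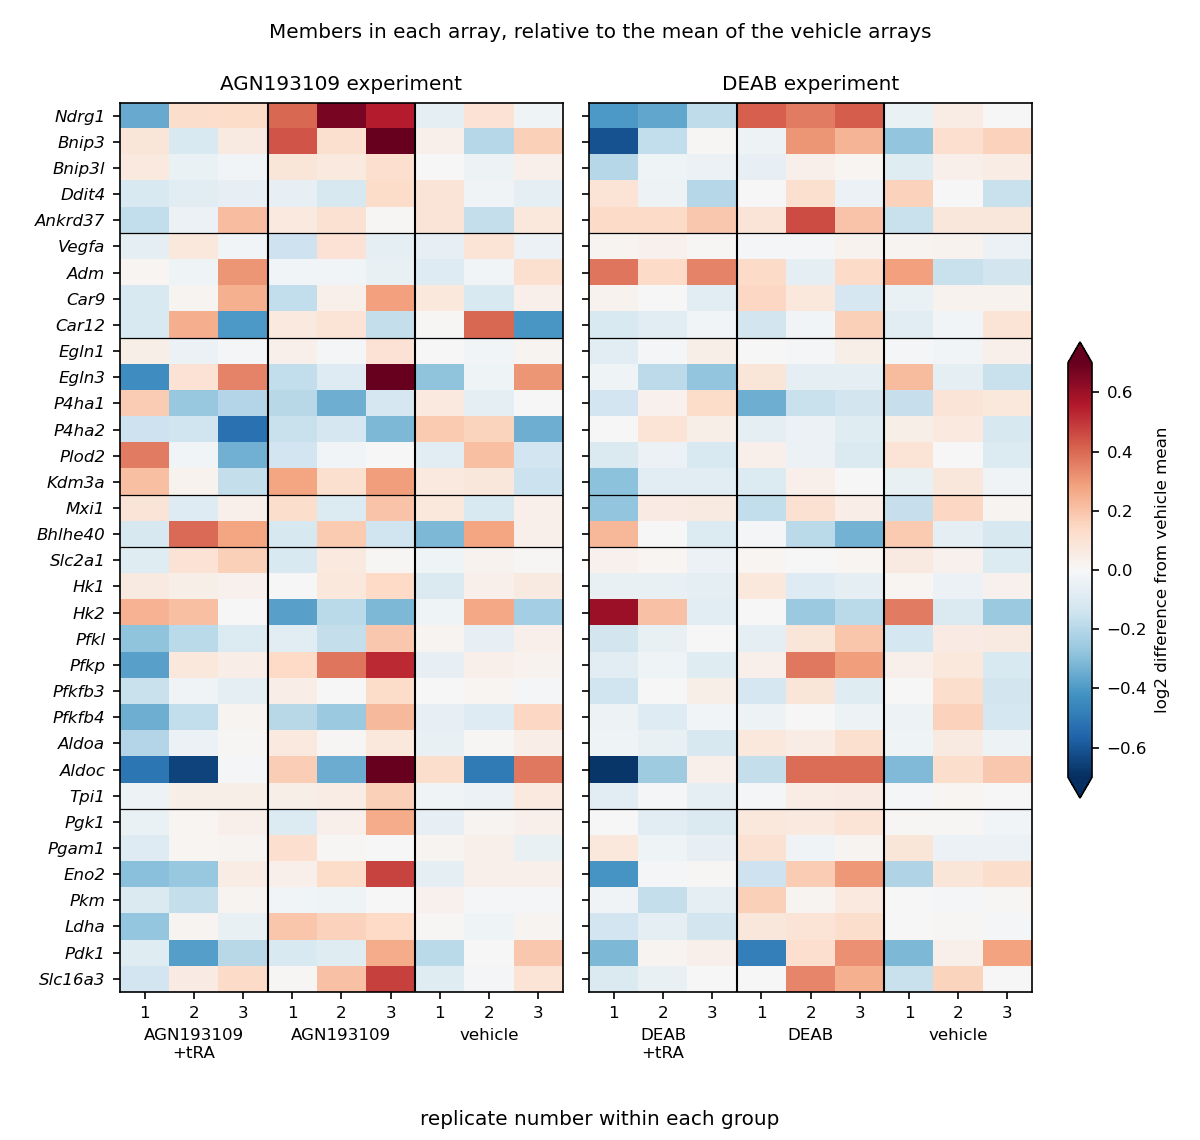
Each row is 1 of the 34 measured members, ordered by role, and each column is 1 array, with replicate numbers below. Colour is the log2 difference from the mean of the 3 vehicle arrays of the same experiment, and the scale stops at 0.7 in both directions. The Ndrg1 row is red in all 6 arrays with an inhibitor alone and blue in the 3 arrays with DEAB and tRA, while Vegfa, Slc2a1 and Egln1 are pale throughout.

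Promoter sequences are shown for the members called with or without the block that RefSeq's promoter table held, and for Ldha and Pfkp. Arrays of Ldha and Pfkp did not overlap between groups in several comparisons. Pkm, averaged over its clusters, met this as often as Pfkp but is not shown. The sequences let the hypoxia element be read directly. The table (build GRCm38.p6) gives 300 bases per start site, 250 before and 50 after it, for 32 of the 36 members. Ndrg1, Bnip3l, Plod2 and Bhlhe40 are named only. Capitals mark every match, on either strand, to the 2 forms of the core of the hypoxia response element, ACGTG and GCGTG. On the opposite strand these read CACGT and CACGC, and a CACGTG holds an ACGTG on each strand. Sequences run 5′ to 3′ along the strand of the gene.
Bnip3: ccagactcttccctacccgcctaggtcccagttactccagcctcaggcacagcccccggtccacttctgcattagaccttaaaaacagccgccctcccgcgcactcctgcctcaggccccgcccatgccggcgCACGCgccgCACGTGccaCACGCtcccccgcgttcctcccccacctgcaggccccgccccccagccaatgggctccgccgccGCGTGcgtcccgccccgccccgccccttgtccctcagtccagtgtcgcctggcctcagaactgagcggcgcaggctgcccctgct
Aldoc: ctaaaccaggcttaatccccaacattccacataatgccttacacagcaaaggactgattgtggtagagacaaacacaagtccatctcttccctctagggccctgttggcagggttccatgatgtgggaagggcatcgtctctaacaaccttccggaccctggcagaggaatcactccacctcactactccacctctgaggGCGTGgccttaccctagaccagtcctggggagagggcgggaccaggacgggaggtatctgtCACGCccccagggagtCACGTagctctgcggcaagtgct
Eno2: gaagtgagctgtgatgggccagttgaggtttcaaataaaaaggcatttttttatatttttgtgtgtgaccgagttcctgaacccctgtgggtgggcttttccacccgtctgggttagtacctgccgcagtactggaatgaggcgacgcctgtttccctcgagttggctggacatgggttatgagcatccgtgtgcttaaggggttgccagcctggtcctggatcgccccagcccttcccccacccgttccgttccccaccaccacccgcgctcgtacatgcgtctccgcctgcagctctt
Pfkp: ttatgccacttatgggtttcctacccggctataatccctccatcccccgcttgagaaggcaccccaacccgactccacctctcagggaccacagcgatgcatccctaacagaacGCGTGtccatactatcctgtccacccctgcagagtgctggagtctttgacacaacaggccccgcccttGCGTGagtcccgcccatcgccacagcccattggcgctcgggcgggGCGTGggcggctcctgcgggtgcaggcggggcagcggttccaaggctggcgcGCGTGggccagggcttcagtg
Ldha: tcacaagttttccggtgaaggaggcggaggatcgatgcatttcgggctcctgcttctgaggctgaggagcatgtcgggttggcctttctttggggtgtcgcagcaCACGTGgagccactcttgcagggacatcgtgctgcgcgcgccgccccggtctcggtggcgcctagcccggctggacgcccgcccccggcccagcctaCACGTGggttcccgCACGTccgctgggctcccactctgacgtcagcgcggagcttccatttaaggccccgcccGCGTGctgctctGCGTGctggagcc

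The Bnip3 window is chr7:138909457-138909756 on the minus strand and has 5 matches, among them a CACGTG whose forward ACGTG begins 107 bases before the start site. The first of 2 Aldoc windows is chr11:78322823-78323122 on the plus strand, with 3 matches at 50 bases before and at positions 12 and 28 of the transcript. The Eno2 window, chr6:124769624-124769923 on the minus strand, holds neither form. The Pfkp window is chr13:6648722-6649021 on the minus strand and has 4 matches, all to GCGTG. The first and second Pkm windows, not shown, have 0 and 2 matches. The first of 2 Ldha windows, chr7:46845554-46845853 on the plus strand, has 7, the most of any member window, with forward ACGTG letters of a CACGTG at 144 and at 47 bases before the start. Of the 32 members with a window, 28 had at least 1 match in some window (87.5%), against 46.7% of the 27025 genes in the table. ACGTG was found in 19.6% and GCGTG in 32.4% of all 32851 windows. The 4 members with no match were Car12, Gpi1, Tpi1 and Eno2. Both forms contain CG, and the base composition of the windows was not compared. A match is a description of the letters only.

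Among the targets that act on mitochondria and in stress, Ndrg1 is a cytoplasmic protein induced by hypoxia and many other stresses. Its level was 11.50, 11.54 and 11.72 in DEAB+tRA cells, 12.31, 12.26 and 12.32 in DEAB cells, and 11.85, 11.95 and 11.89 in vehicle cells, in the order of replicate number. The 3 groups did not overlap at any point, with DEAB highest and DEAB+tRA lowest. The change was -0.72 in DEAB+tRA against DEAB (SE 0.06, adjusted p = 0.00234, and 0.00175 with the block). DEAB against vehicle gave 0.40, a ratio of 1.32 (SE 0.06, adjusted p = 0.115, and 0.0514 with the block). DEAB+tRA against vehicle gave -0.31 (SE 0.06, adjusted p = 0.668), lower in 3 of 3 replicate numbers.

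In the AGN193109 experiment, Ndrg1 read 11.45, 11.93 and 11.93 in AGN193109+tRA cells, 12.21, 12.47 and 12.35 in AGN193109 cells, and 11.73, 11.90 and 11.77 in vehicle cells. The AGN193109 arrays lay above all others, and the other 2 groups overlapped. AGN193109+tRA against AGN193109 gave -0.57 (SE 0.13, adjusted p = 1, and 0.104 with the block), and AGN193109 against vehicle gave 0.54, a ratio of 1.45 (SE 0.13, adjusted p = 0.567, and 0.054 with the block). A fit of all 18 arrays together put AGN193109 against vehicle at an adjusted p of 0.0496. AGN193109+tRA against vehicle gave -0.03, with a 95% interval of -0.33 to 0.26. The inhibitor comparison and the tRA comparison of an experiment share the arrays with inhibitor alone, so their opposite signs are not separate observations.

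Bnip3, a mitochondrial outer membrane protein that draws mitochondria into autophagy, read 9.58, 10.01 and 10.20 in DEAB+tRA cells, 10.15, 10.49 and 10.42 in DEAB cells, and 9.91, 10.30 and 10.35 in vehicle cells. The groups overlapped, yet within each replicate number DEAB was highest and DEAB+tRA lowest. DEAB+tRA against DEAB gave -0.43 (adjusted p = 0.741 without the block and 0.0242 with it), and -0.25 without DEAB+tRA replicate 1. The 2 Bnip3 clusters differed in this call: fitted as rows of their own with the block, they gave -0.50 (adjusted p = 0.0053) and -0.35 (adjusted p = 0.117).

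With AGN193109, Bnip3 read 9.92, 9.74 and 9.91 in AGN193109+tRA cells, 10.28, 9.95 and 10.72 in AGN193109 cells, and 9.88, 9.64 and 10.01 in vehicle cells. As the average of its clusters, AGN193109+tRA lay below AGN193109 without overlap, by 0.46 on the log2 scale (SE 0.17). AGN193109 against vehicle gave 0.48 (SE 0.17), with adjusted p = 1 for both comparisons. A single cluster overlapped in the first of these, with 9.645, 9.537 and 9.656 in AGN193109+tRA and 10.015, 9.618 and 10.409 in AGN193109. Without AGN193109 replicate 3, these values were -0.26 and 0.27. Bnip3l, its close relative with the same task, varied far less, between -0.09 and 0.09 in the inhibitor and tRA comparisons.

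Ankrd37, an ankyrin repeat protein induced by hypoxia-inducible factors, read 7.52, 7.52 and 7.57 in DEAB+tRA cells, 7.48, 7.84 and 7.58 in DEAB cells, and 7.23, 7.46 and 7.46 in vehicle cells. Both DEAB groups lay above vehicle without overlap, with 0.25 for DEAB against vehicle (SE 0.10, adjusted p = 1), and 0.14 without DEAB replicate 2. In the AGN193109 experiment it read 6.95, 7.08 and 7.34 with AGN193109+tRA, 7.19, 7.23 and 7.14 with AGN193109, and 7.22, 6.96 and 7.20 with vehicle, and the groups overlapped. Ddit4, an inhibitor of mTOR signalling, lay between -0.07 and 0.02 in the inhibitor and tRA comparisons of both experiments.

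**Figure D2:**
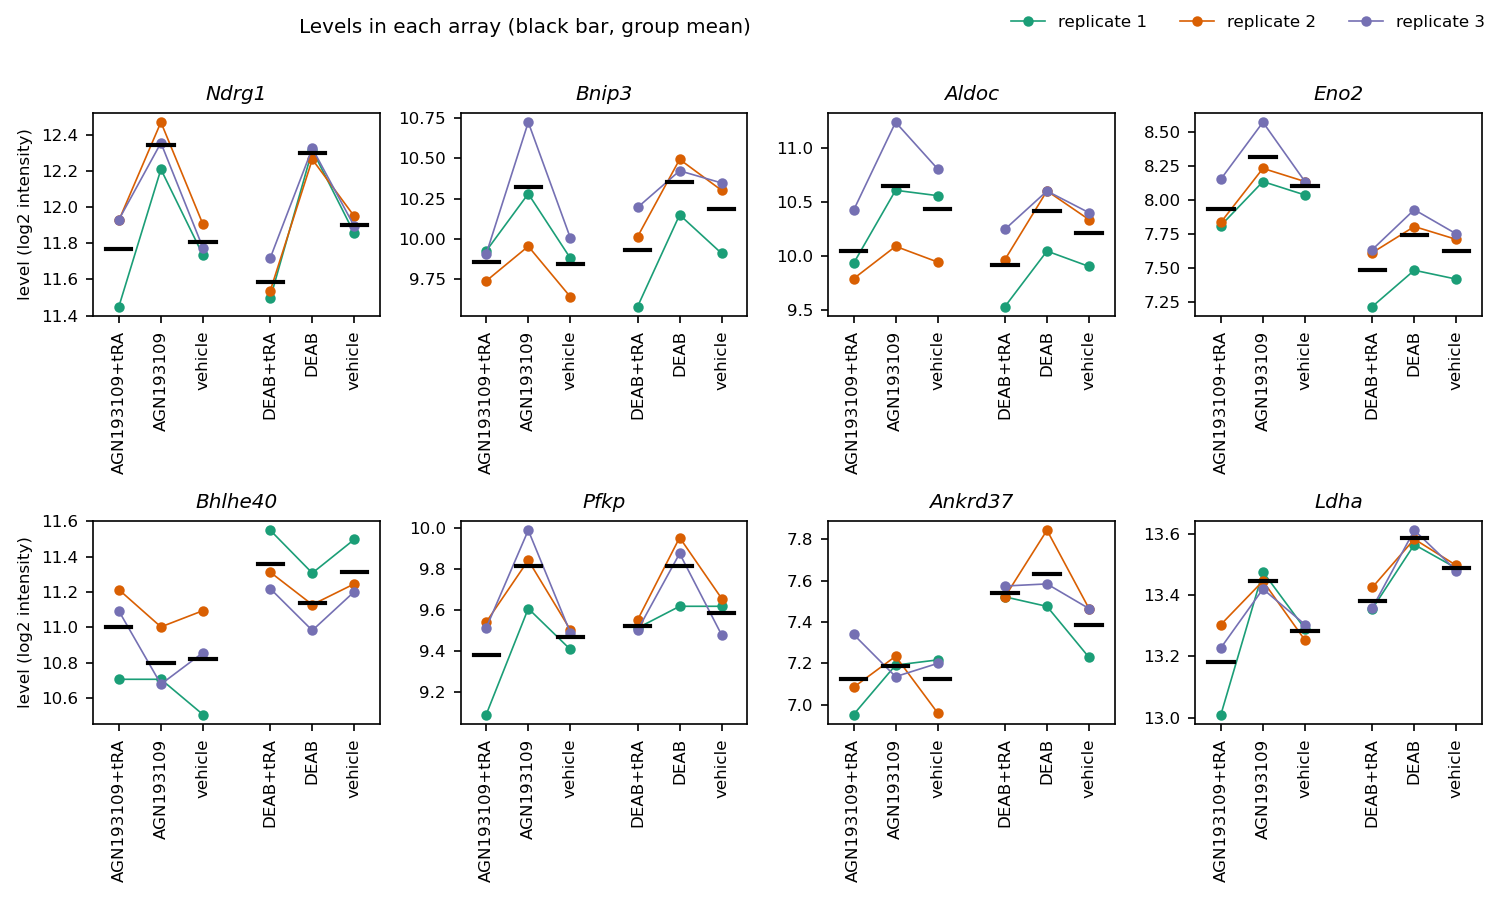
Each panel shows the level of 1 gene in log2 intensity in each array, with the 3 groups of the AGN193109 experiment on the left and those of the DEAB experiment on the right. Thin lines join arrays of 1 replicate number and black bars are group means. For Ndrg1 the inhibitor groups average 12.34 and 12.30, and for Aldoc, Bnip3 and Eno2 the lines of the replicate numbers run apart but bend the same way.

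The secreted factors and the enzymes of pH balance had no call in any comparison. Vegfa, the growth factor of vessels and among the best known targets of hypoxia-inducible factors, gave 0.02 in DEAB+tRA against DEAB (95% interval -0.07 to 0.10), 0.00 in DEAB against vehicle (-0.09 to 0.09), 0.03 in AGN193109+tRA against AGN193109 (-0.16 to 0.23) and -0.04 in AGN193109 against vehicle (-0.23 to 0.16). These intervals leave no room for a change of the size that Ndrg1 had. Adm, the vasodilator adrenomedullin, was higher by 0.22 in DEAB+tRA against DEAB (SE 0.12, adjusted p = 0.846), in 3 of 3 replicate numbers. Car9 and Car12, carbonic anhydrases of the cell surface, ranged from -0.08 to 0.05 in the inhibitor and tRA comparisons. Car9 was dim, at percentiles 26.5 and 22.8 of all rows, so little can be read from it.

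Of the oxygen-dependent hydroxylases and the demethylase, none was called. Egln1, the main oxygen sensor, ranged from -0.05 to 0.04 in the inhibitor and tRA comparisons. Egln3, a sensor that is itself induced by hypoxia, varied more with replicate number than with treatment in the AGN193109 experiment, where the means of the replicate numbers were 8.70, 8.99 and 9.50. P4ha1, a subunit of the collagen prolyl hydroxylase, moved opposite to Ndrg1 in the DEAB experiment. It read 11.73, 11.89 and 11.99 in DEAB+tRA cells, 11.52, 11.71 and 11.74 in DEAB cells, and 11.70, 11.95 and 11.94 in vehicle cells. DEAB+tRA against DEAB gave 0.22 (SE 0.09, adjusted p = 0.767, and 0.0534 with the block), and DEAB against vehicle gave -0.21 (adjusted p = 1, and 0.142 with the block). With AGN193109 it read 11.68, 11.24 and 11.30 in AGN193109+tRA cells, 11.31, 11.16 and 11.39 in AGN193109 cells, and 11.58, 11.44 and 11.50 in vehicle cells, where AGN193109 lay below vehicle without overlap. AGN193109+tRA against AGN193109 gave 0.12 (SE 0.12) with overlap, and -0.09 for replicate number 3. P4ha1, Hk2 and Ldha are described in full because of their values and not by the rule for the other genes. Plod2, a lysyl hydroxylase of collagen, stayed between -0.05 and 0.05, and P4ha2, the sister subunit of P4ha1, between -0.20 and 0.11. Kdm3a, a histone demethylase induced by hypoxia, gave -0.20 in AGN193109+tRA against AGN193109 and 0.23 in AGN193109 against vehicle (SE 0.11 and adjusted p = 1 for both). In the DEAB experiment it gave -0.13 in DEAB+tRA against DEAB and -0.02 in DEAB against vehicle (SE 0.07 for both).

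Of the 2 transcription repressors, Bhlhe40, a repressor that also acts in the circadian clock, rose in DEAB+tRA cells with the block. It read 11.55, 11.31 and 11.22 in DEAB+tRA cells, 11.31, 11.13 and 10.98 in DEAB cells, and 11.50, 11.25 and 11.20 in vehicle cells. DEAB+tRA lay above DEAB in 3 of 3 replicate numbers, by 0.22 on the log2 scale (adjusted p = 0.834 without the block and 0.0429 with it). The difference was 0.13 without DEAB+tRA replicate 1 and 0.14 without DEAB replicate 3. In the AGN193109 experiment it read 10.71, 11.21 and 11.09 with AGN193109+tRA, 10.71, 11.00 and 10.68 with AGN193109, and 10.51, 11.09 and 10.86 with vehicle, and the groups overlapped. Mxi1, an antagonist of Myc, ranged from -0.06 to 0.08 in the inhibitor and tRA comparisons.

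Slc2a1, the transporter that brings glucose in, stayed near 0 with narrow intervals: DEAB+tRA against DEAB gave -0.01 (95% interval -0.12 to 0.11) and DEAB against vehicle 0.01 (-0.11 to 0.12), and AGN193109+tRA against AGN193109 gave 0.07 (-0.12 to 0.26) and AGN193109 against vehicle -0.01 (-0.20 to 0.18). Hk2, the inducible hexokinase that traps glucose in the cell, had a higher mean with tRA than with inhibitor alone, but was not called. It read 10.32, 10.29 and 10.08 in AGN193109+tRA cells, 9.69, 9.88 and 9.76 in AGN193109 cells, and 10.04, 10.34 and 9.83 in vehicle cells. AGN193109+tRA lay above AGN193109 without overlap, by 0.45 (SE 0.13, adjusted p = 1, and 0.28 with the block). In the DEAB experiment Hk2 read 10.43, 10.04 and 9.75 in DEAB+tRA cells, 9.84, 9.57 and 9.65 in DEAB cells, and 10.20, 9.73 and 9.57 in vehicle cells. There DEAB+tRA against DEAB gave 0.39 with overlap (adjusted p = 0.822, and 0.122 with the block). Against vehicle, AGN193109+tRA gave 0.15 and DEAB+tRA 0.24, both with overlap. Hk1, the constitutive hexokinase, ranged from -0.03 to 0.07 as the average of 2 clusters. These went opposite ways in the DEAB experiment, with -0.13 and 0.07 in DEAB+tRA against DEAB and 0.08 and -0.13 in DEAB against vehicle, none called, so the average reads neither.

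Pfkp, the platelet form of phosphofructokinase, the enzyme that commits sugar to glycolysis, read 9.51, 9.55 and 9.50 in DEAB+tRA cells, 9.62, 9.95 and 9.88 in DEAB cells, and 9.62, 9.66 and 9.48 in vehicle cells. With AGN193109 it read 9.09, 9.54 and 9.51 in AGN193109+tRA cells, 9.61, 9.84 and 9.99 in AGN193109 cells, and 9.41, 9.50 and 9.49 in vehicle cells. In both experiments the arrays with tRA lay below those with inhibitor alone without overlap. The differences were -0.29 with DEAB (SE 0.09, adjusted p = 0.441) and -0.43 with AGN193109 (SE 0.13, adjusted p = 1), and neither passed with the block (adjusted p = 0.165 and 0.255). Without AGN193109+tRA replicate 1, the difference with AGN193109 was -0.29. Pfkl, the liver form, and the regulators Pfkfb3 and Pfkfb4, which set the level of the activator fructose 2,6-bisphosphate, ranged from -0.17 to 0.07.

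Aldoc, an aldolase, which splits the sugar into a pair of triose phosphates, read 9.53, 9.97 and 10.25 in DEAB+tRA cells, 10.05, 10.60 and 10.60 in DEAB cells, and 9.90, 10.34 and 10.40 in vehicle cells. The order DEAB, vehicle, DEAB+tRA held from high to low within all 3 replicate numbers. DEAB+tRA against DEAB gave -0.50, a ratio of 0.706 (adjusted p = 0.763 without the block and 0.0104 with it), and -0.31 without DEAB+tRA replicate 1. In the AGN193109 experiment Aldoc read 9.93, 9.79 and 10.42 with AGN193109+tRA, 10.61, 10.09 and 11.24 with AGN193109, and 10.56, 9.94 and 10.81 with vehicle. AGN193109+tRA against AGN193109 gave -0.60 (SE 0.30, adjusted p = 1, and 0.192 with the block), lower in 3 of 3, and -0.30 without AGN193109 replicate 3. Aldoa, the muscle aldolase that most tissues also make, gave -0.14 in DEAB+tRA against DEAB and -0.13 in AGN193109+tRA against AGN193109, both without overlap (adjusted p = 0.569 and 1). Tpi1, which interconverts the pair of products that aldolase makes, ranged from -0.08 to 0.09.

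The enzymes that yield ATP and decide the fate of pyruvate all had lower means with tRA than with inhibitor alone. All 7 measured had a log2 fold change below 0 in both tRA comparisons. The medians were -0.17 in DEAB+tRA against DEAB and -0.21 in AGN193109+tRA against AGN193109, where 53.2% and 43.6% of all rows were above 0. In those comparisons 6 and 3 of the 7 were lower in 3 of 3 replicate numbers, against 16.4% and 14.1% of all rows. Against vehicle, 0 and 2 of the 7 were above 0 in DEAB+tRA and AGN193109+tRA. Eno2, the neuronal enolase, which is also induced by hypoxia, read 7.21, 7.61 and 7.63 in DEAB+tRA cells, 7.48, 7.81 and 7.93 in DEAB cells, and 7.42, 7.71 and 7.75 in vehicle cells. DEAB+tRA was lower than DEAB in 3 of 3, by 0.25 (adjusted p = 0.854 without the block and 0.0373 with it). The difference was -0.12 without DEAB+tRA replicate 1, -0.16 without DEAB replicate 3 and -0.38 without DEAB replicate 1. With AGN193109 it read 7.81, 7.84 and 8.16 in AGN193109+tRA cells, 8.14, 8.23 and 8.57 in AGN193109 cells, and 8.04, 8.14 and 8.14 in vehicle cells, and AGN193109+tRA against AGN193109 gave -0.38 (SE 0.13, adjusted p = 1), and -0.25 without AGN193109 replicate 3.

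Ldha, the subunit of lactate dehydrogenase that favours lactate, read 13.36, 13.43 and 13.36 in DEAB+tRA cells, 13.56, 13.58 and 13.61 in DEAB cells, and 13.49, 13.50 and 13.48 in vehicle cells. The 3 groups did not overlap. With AGN193109 it read 13.01, 13.30 and 13.23 in AGN193109+tRA cells, 13.48, 13.45 and 13.42 in AGN193109 cells, and 13.29, 13.25 and 13.30 in vehicle cells, and AGN193109 lay above both. DEAB+tRA against DEAB gave -0.21 (SE 0.04, adjusted p = 0.105, and 0.0548 with the block), and AGN193109+tRA against AGN193109 gave -0.27 (SE 0.08, adjusted p = 1). In DEAB+tRA against DEAB, Pgk1, the kinase that makes the first ATP of the pathway, gave -0.14, Pkm, pyruvate kinase, -0.17, and Slc16a3, which carries lactate out, -0.25, with adjusted p of 0.504, 0.527 and 0.739. Pdk1, a kinase that inhibits pyruvate dehydrogenase, gave -0.07 in that comparison, with a 95% interval of -0.56 to 0.42. Pgam1, phosphoglycerate mutase, gave -0.04 (-0.17 to 0.09).

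**Figure D3:**
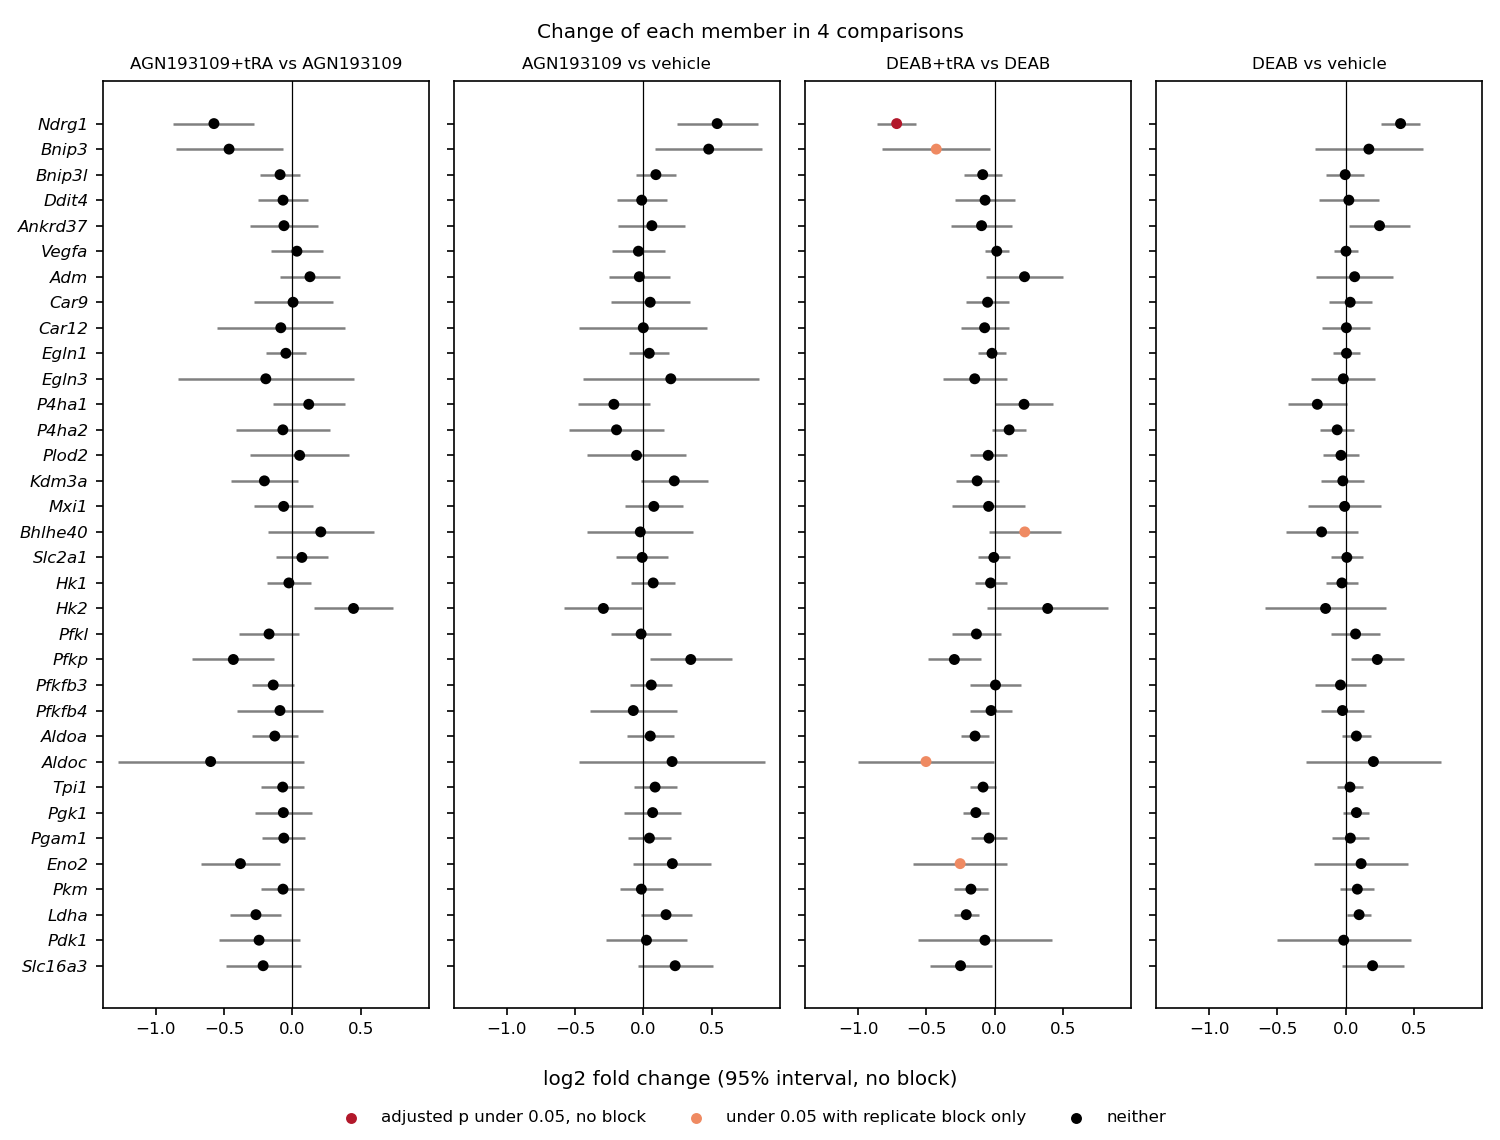
Points are the log2 fold change of each member and lines its 95% interval without the block, in 4 comparisons, with the members in order of role. Ndrg1 in DEAB+tRA against DEAB is the only point called without the block, at -0.72. Bnip3, Bhlhe40, Aldoc and Eno2 are coloured as called only with the block, and their intervals are wide because the replicate numbers lie apart.

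Counted over the group, 27 of the 34 members had a negative fold change in DEAB+tRA against DEAB and 26 in AGN193109+tRA against AGN193109. Those with a positive one were 7 and 8, which is 20.6% and 23.5% of members, against 53.2% and 43.6% of all rows. The median fold change of the members was -0.07 in both, against 0.01 and -0.01 for all rows. In DEAB against vehicle and in AGN193109 against vehicle 21 of 34 had a positive fold change, or 61.8%, against 50.6% and 56.8% of all rows, with medians of 0.02 and 0.05. Against vehicle, 8 of 34 members were positive in DEAB+tRA, or 23.5% against 51.6% of all rows (median -0.05), and 15 of 34 in AGN193109+tRA, or 44.1% against 50.5% (median -0.0044), and the difference between the experiments was not tested. Members with an unadjusted p under 0.05 numbered 10 in DEAB+tRA against DEAB (1 higher and 9 lower) and 6 in AGN193109+tRA against AGN193109 (1 higher and 5 lower), against 6.5% and 2.25% of all rows. They numbered 4 in DEAB against vehicle (all higher) and 4 in AGN193109 against vehicle (3 higher and 1 lower), against 4.04% and 3.35% of all rows. Genes of 1 pathway are not independent of each other, so these counts describe the group and carry no p.

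The calls by adjusted p in the remaining comparisons were few in the whole table. Without and with the block, 0.0789% and 0.482% of rows were called in AGN193109 against vehicle, 0.0232% and 0.0928% in AGN193109+tRA against AGN193109, and 0.0464% and 0.329% in DEAB against vehicle. Of the members, 0 were called in each. In AGN193109+tRA against vehicle 0% of rows were called in both fits, and 0 members had an unadjusted p under 0.05 without the block. In DEAB+tRA against vehicle 0% and 0.0232% of rows were called, and 3 members had an unadjusted p under 0.05 without the block, Ndrg1 and Ldha lower and Adm higher.

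Non-overlap of the 3 arrays of each group uses no model, but it depends on the spread within groups and ignores replicate number. In DEAB+tRA against DEAB, Ndrg1, Pfkp, Aldoa, Pgk1, Pkm and Ldha, 6 of the 34, lay wholly below, against 4.68% of all rows, and P4ha2 wholly above, against 4.77%. In AGN193109+tRA against AGN193109, 7 members lay wholly below, namely Ndrg1, Bnip3, Bnip3l, Pfkp, Pfkfb3, Aldoa and Ldha, against 3.01% of rows, and Hk2 wholly above, against 1.34%. Bnip3 and Bnip3l are averages of clusters here, and for each gene a single cluster lay apart while the other overlapped. The Bnip3l averages barely separated, with 13.184 the highest in AGN193109+tRA and 13.185 the lowest in AGN193109. In DEAB against vehicle, 5 members lay wholly above (Ndrg1, Ankrd37, Pgk1, Pkm and Ldha), against 3.42% of rows, and 0 below, against 3.59%. In AGN193109 against vehicle, 5 lay wholly above (Ndrg1, Bnip3l, Kdm3a, Pfkp and Ldha), against 3.75% of rows, and P4ha1 below, against 2.4%. Ndrg1 and Ldha were in the lists of all 4 of these comparisons. In DEAB+tRA against vehicle, 5 lay wholly below (Ndrg1, Kdm3a, Hk1, Pkm and Ldha), against 3.3% of rows, and Ankrd37 above, against 4.92%. Hk1 and Pkm are averages of clusters. Neither Hk1 cluster lay wholly below by itself, and a single Pkm cluster did. The other Pkm cluster overlapped there and in DEAB against vehicle, and its arrays met at 12.587 in DEAB+tRA against DEAB. In AGN193109+tRA against vehicle, Pfkl and Pfkfb3 lay below, against 2.54%, and 0 members above, against 1.49%. Comparisons within an experiment share arrays.

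The 2 experiments share no arrays, and their fold changes can be set side by side. With tRA added, 24 of 34 members were lower in both experiments, or 70.6%, against 31% of all rows, and 5 were higher in both, or 14.7%, against 27.8%. With the inhibitor alone, 14 members were higher in both, or 41.2%, against 30.5% of rows, and 6 were lower in both, or 17.6%, against 23%. The members had been proposed with results of these arrays known, so the counts are a description. An interaction test of the AGN193109 effect minus the DEAB effect called 0% of rows without the block and 0.00464% with it, and one of the tRA effect with AGN193109 minus that with DEAB called 0% in both fits. In neither test was a member called. Unadjusted p-values under 0.05 were found only with the block and in the first of these tests, for 2 members, Bnip3 (0.31) and Kdm3a (0.25), both with adjusted p = 0.889 by limma. For Ndrg1 the inhibitor effects differed by 0.14 (95% interval -0.19 to 0.46) and the tRA effects by 0.14 (-0.18 to 0.47).

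Replicate number was a large source of spread for several members. Aldoc had means of 10.37, 9.94 and 10.82 for replicate numbers 1, 2 and 3 in the AGN193109 experiment, a range of 0.883, which was wider than the range of 0.598 between its group means and lay at percentile 99.4 of all rows. In the DEAB experiment its ranges were 0.59 by replicate number and 0.502 by group. Pdk1 in the DEAB experiment had 0.581 by replicate number and 0.0849 by group, and Egln3 in the AGN193109 experiment 0.801 and 0.2. Ndrg1 differed from these, with 0.302 by replicate number against 0.574 by group in the AGN193109 experiment. Over all rows, the median range by replicate number was 0.159 and 0.105 in the AGN193109 and DEAB experiments. What differed between the replicate numbers was not tested.

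**Figure D4:**
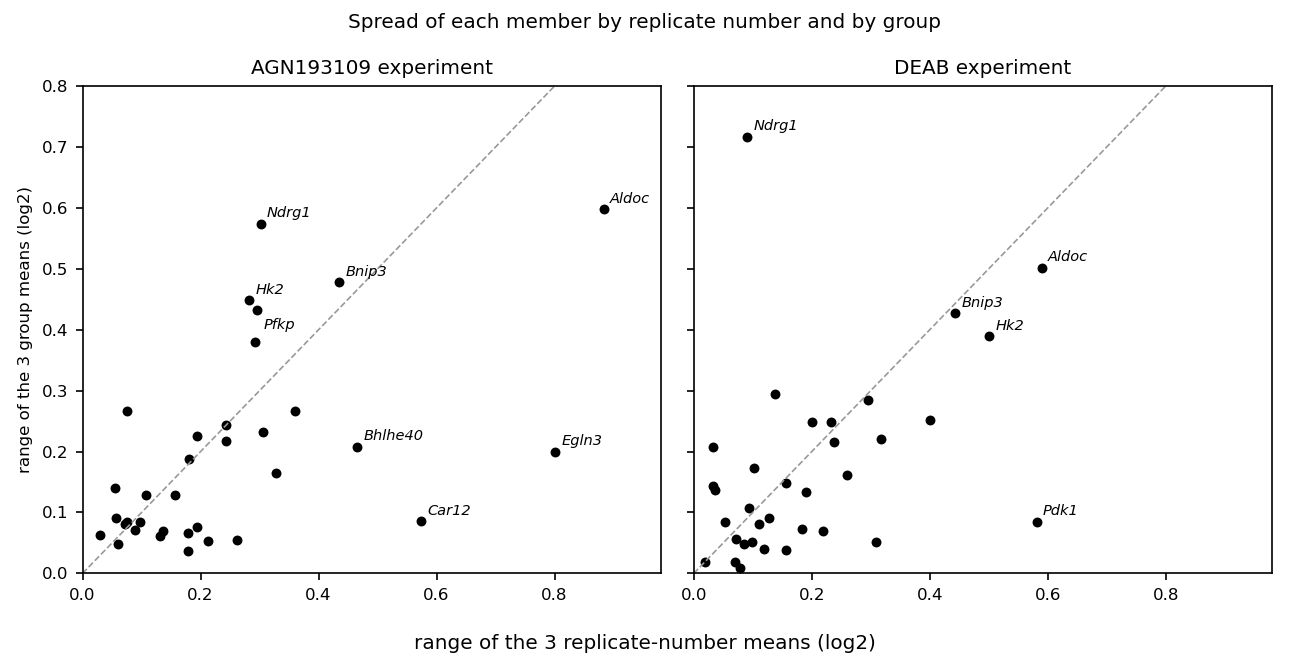
Each point is 1 member, with the range of its 3 replicate-number means on the horizontal axis and the range of its 3 group means on the vertical axis, both in log2 units. Points below the dashed line of equality varied more by replicate number than by group, as Aldoc, Egln3 and Car12 did in both experiments and Pdk1 in the DEAB experiment, and Ndrg1 lies above the line in both experiments.

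Other genes of the pathway were read from lists of related genes. Of 37 measured hypoxia-induced genes outside the 36, Angptl4, an inhibitor of lipoprotein lipase, fell in DEAB+tRA against DEAB by 0.41 (SE 0.05, adjusted p = 0.0122), and with the block Stc2, a secreted glycoprotein, rose by 0.31 (adjusted p = 0.0203) and Edn1, the vasoconstrictor endothelin 1, by 0.92 (adjusted p = 0.0217). Of 25 other glycolytic genes, Pdk4, a kinase that acts like Pdk1, fell by 0.65 (SE 0.07, adjusted p = 0.00876), also with the block (adjusted p = 0.00841). In AGN193109+tRA against AGN193109 the same genes gave 0.01 for Angptl4, 0.29 for Stc2, 0.43 for Edn1 and -0.11 for Pdk4, none called. The 11 sensors and factors, Hif1a and Epas1 among them, had no call. Hif1a gave -0.02 in DEAB+tRA against DEAB (SE 0.04), and Epas1, the factor also called HIF-2α, gave -0.17 (SE 0.06, adjusted p = 0.671). The lists of 7 gluconeogenic genes, 9 lysine demethylases and the 3 relatives of Ndrg1 had none either. Ndrg2, Ndrg3 and Ndrg4 gave -0.22, -0.01 and 0.00 in DEAB+tRA against DEAB. The medians were -0.0048 in the hypoxia-induced list and -0.0024 in the glycolytic list there, against -0.07 for the 34 members, and 17 of 37 and 12 of 25 genes had a positive fold change. In the other 5 comparisons no listed gene was called in either fit, while 0 to 4 genes a list had an unadjusted p under 0.05.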

How the data were processed

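Total RNA was hybridised to 18 Mouse Gene 1.0 ST arrays (Affymetrix). The authors applied Robust Multichip Average (RMA) normalization in Affymetrix Expression Console and deposited log2 values. Software versions are not given in the sources used here. RMA shrinks the changes of dim probe sets, and depth in reads does not apply. Groups came from the titles. The short names of vehicle arrays, which differ in form, gave the experiment, and labels that spell the compound AGN193110 or AGN193099 were read as AGN193109. Clusters with 1 symbol were averaged by gene, and 1621 clusters with several symbols were kept as rows of their own. Fits used limma 3.58.1 in R 4.3.3, with 9 arrays per experiment, group means and moderated variances. Array medians differed between the experiments, so levels were compared within an experiment only. The fit was tested on simulated data with noise drawn independently for each array. An offset between replicate numbers was not simulated. Replicate numbers mark independent biological experiments in the labels, and residuals of same-numbered arrays correlated at 0.194 to 0.634 and 0.181 to 0.621, so a fit with replicate number as a block was added. Genes were given in every array where they were called in either fit or among the 3 largest changes of an inhibitor or tRA comparison. The members and gene lists were chosen with earlier results of these data known.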

Additional observations from a re-analysis of the deposited data

How the results depend on the processing

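With the replicate block, the count of members called in DEAB+tRA against DEAB was 5, against 1 without it, and the pairing by replicate number changed the call of no member elsewhere. The trend and robust options of limma called 2 members there, Ndrg1 and Ldha (adjusted p = 0.00823). With all 18 arrays in 1 fit, 1 member was called in AGN193109 against vehicle, Ndrg1, at an adjusted p of 0.0496. Leaving out each array in turn without the block gave 1 member in DEAB+tRA against DEAB each time, and leaving out each replicate number with the block, chosen after seeing the data, gave 0. Ndrg1 in DEAB+tRA against DEAB was called under the 18 other alternatives, with adjusted p between 0.00058 and 0.0374. The 57 member values tried under those 18 alternatives were those with an unadjusted p under 0.05 by limma, with or without the block. None changed sign or lost a call, and 6 gained one. Only Ndrg1 in DEAB+tRA against DEAB had a call to lose, and values picked by a low p seldom change sign. The counts therefore say little about the group. Sizes moved more. Without DEAB+tRA replicate 1, DEAB+tRA against DEAB gave -0.25 for Bnip3, -0.31 for Aldoc, -0.12 for Eno2 and 0.13 for Bhlhe40. Each came from the fit without the block and was over 1.5 times smaller than with all arrays. DEAB replicate 1 stayed in that fit, so the offset between replicate numbers enters these values. By replicate number, the differences were -0.27, -0.19 and -0.29 for Eno2 and 0.24, 0.18 and 0.24 for Bhlhe40. They were -0.51, -0.64 and -0.35 for Aldoc and -0.57, -0.48 and -0.23 for Bnip3. Quantile normalization, array medians, the filter on dim rows and the use of single clusters changed no count of members called. With 3 arrays per group, a change of the size seen in most members is within the spread, and dim members such as Car9 have little range.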
